A study of Homo sapiens with 27 samples.

Results

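The genes described here are 48 genes of DNA replication and of the step from G1 into S phase, followed across the 8 groups of a bead array experiment. They were chosen by name, from a list of replication and G1/S genes, and each was read from the probe with the highest mean over all arrays. All 48 were measured, through 74 probes, among 18665 genes that had a probe of 1 symbol. The cells were HT1080, a human fibrosarcoma line with fibroblast character, and the proteins expressed in them were nuclear envelope transmembrane proteins (NETs), studied for their effect on where chromosomes lie in the nucleus. Full-length NET29-GFP (TMEM120A, n = 4), NET39-GFP (PPAPDC3, now PLPP7, n = 4) or NET47-GFP (TM7SF2, n = 3) was expressed in stable lines, which are set here first against untreated cells (n = 4). The soluble fragment of NET29, NET39 or NET47, which faces the nucleoplasm and lacks the membrane spans, was taken as expressed transiently (n = 3 each). A figure legend of the study calls the fragment cells stable, so this mode of expression is uncertain. The fragments are set first against cells transfected with GFP carrying a nuclear localisation signal (NLS-GFP, n = 3). The word transient below names the fragment and NLS-GFP groups. This pairing of controls by mode of expression was a choice made here. The study's methods name both NLS-GFP and untransfected cells as the reference, while its results text sets the NETs against NLS-GFP. Each set is also compared with the other control further on. The lines were selected with Geneticin and enriched for GFP by sorting, and untreated cells were neither transfected nor selected. Whether a line came from 1 clone and which promoter drove the fusions are not given in the sources used here. The replicates are described by the study as biological replicates, from separate passages for the lines, so the p-values measure the spread between such arrays and not between lines.

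Replication starts from origins that the origin recognition complex marks. In G1, CDC6 and CDT1 load the ring-shaped MCM2-7 helicase onto them, which is called licensing. Cyclin E kinase and the E2F transcription factors carry the cell over the G1/S boundary, CDC45, MCM10 and the GINS complex switch the helicase on, and polymerases alpha, delta and epsilon copy the strands behind it with the sliding clamp PCNA, its loader RFC, the single-strand binding protein RPA and the nucleotides that ribonucleotide reductase supplies. Many of these genes are textbook E2F targets whose transcripts peak around the start of S phase. A bulk array reads the mean over all cells, so that fewer cells in S phase and less RNA per cell cannot be told apart.

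The promoters of the members that the results turn on are shown first, because most of the programme is known as E2F-driven. RefSeq promoter windows (GRCh38.p14, 250 bases before to 50 after the gene start) were given for 41 of the 48 genes, with no entry for MCM4, MCM5, GINS4, POLD3, RPA2, RPA3 and CCNE2. Capitals mark an E2F-type match (TTTCCCGC, TTTCGCGC, TTTGCCGC or TTTGGCGC on either strand) or a CCAAT box (CCAAT on either strand), and in MCM7 a CCAAT box shares its first base with the last base of an E2F-type match. POLE2 lies at chr14:49688165-49688464 (minus strand), CDT1 at chr16:88803539-88803838 (plus), MCM7 at chr7:100101348-100101647 (minus), RRM1 at chr11:4094435-4094734 (plus), RRM2 at chr2:10122489-10122788 (plus) and PCNA at chr20:5126573-5126872 (minus). Each is written 5′ to 3′ in the direction of the gene.
POLE2: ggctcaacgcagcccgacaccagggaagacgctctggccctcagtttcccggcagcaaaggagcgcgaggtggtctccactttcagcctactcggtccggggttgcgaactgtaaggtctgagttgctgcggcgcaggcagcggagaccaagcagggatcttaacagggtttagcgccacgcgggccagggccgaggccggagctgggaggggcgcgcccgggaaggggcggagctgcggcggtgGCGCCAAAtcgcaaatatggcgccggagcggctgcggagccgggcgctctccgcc
CDT1: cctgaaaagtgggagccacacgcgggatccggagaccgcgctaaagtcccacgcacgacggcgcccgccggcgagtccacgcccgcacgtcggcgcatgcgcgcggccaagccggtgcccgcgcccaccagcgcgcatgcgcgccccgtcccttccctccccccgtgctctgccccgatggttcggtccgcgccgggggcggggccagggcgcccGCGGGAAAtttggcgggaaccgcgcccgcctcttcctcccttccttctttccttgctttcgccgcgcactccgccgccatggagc
MCM7: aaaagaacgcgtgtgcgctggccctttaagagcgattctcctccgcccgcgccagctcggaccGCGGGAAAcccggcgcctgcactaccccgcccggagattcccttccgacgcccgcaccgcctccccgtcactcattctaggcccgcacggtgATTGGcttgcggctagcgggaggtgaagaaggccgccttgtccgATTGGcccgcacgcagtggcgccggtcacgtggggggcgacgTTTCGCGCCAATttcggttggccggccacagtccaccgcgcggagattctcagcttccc
RRM1: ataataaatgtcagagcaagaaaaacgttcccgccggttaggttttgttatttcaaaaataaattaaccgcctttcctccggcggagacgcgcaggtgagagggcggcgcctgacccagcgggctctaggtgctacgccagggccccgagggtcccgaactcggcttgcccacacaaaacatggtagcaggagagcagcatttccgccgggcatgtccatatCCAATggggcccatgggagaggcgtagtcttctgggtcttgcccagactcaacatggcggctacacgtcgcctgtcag
RRM2: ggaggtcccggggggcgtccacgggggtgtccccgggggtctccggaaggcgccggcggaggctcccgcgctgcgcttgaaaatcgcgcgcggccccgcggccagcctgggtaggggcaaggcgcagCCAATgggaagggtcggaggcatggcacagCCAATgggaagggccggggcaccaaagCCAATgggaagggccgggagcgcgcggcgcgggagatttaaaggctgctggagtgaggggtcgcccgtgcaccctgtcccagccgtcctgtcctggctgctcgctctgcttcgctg
PCNA: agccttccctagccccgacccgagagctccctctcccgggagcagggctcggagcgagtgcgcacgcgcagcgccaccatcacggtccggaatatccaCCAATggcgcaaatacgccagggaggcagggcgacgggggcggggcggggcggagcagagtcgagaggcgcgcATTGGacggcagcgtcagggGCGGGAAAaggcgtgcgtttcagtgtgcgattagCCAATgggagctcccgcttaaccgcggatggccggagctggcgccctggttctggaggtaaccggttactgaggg
An E2F-type match stood in 22 of the 41 member promoters (53.7%) and in 3.33% of all 27305 promoters of the same length. A CCAAT box stood in 24 (58.5%), against 35.7% of all promoters. The cell cycle homology region letters TTTGAA or TTCGAA, found in many mitotic promoters, stood in 2 members (4.88%), against 16.6% of all. Of the members with a window that passed limma's threshold in a comparison below, with all arrays and quantile normalisation, POLE2, CDT1, MCM7, PCNA and GINS3 held an E2F-type match, while RRM1, RRM2, CCNE1, PRIM2, CHAF1A, TK1, CDC45, RFC4, ORC1, ORC6 and POLD1 held none in this window.

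The arrays differed in ways that bear on these genes. On the first principal component (35.6% of the variance) the 12 transient arrays lay between 7.5 and 24.9 and the untreated and stable arrays between -23.4 and -3.9, except untreated replicate 4, at 17.2. On the second component untreated replicate 2 (37.5) and NET47 full-length replicate 3 (33.8) stood apart. The background intensity of an array ran from 60.45 to 83.09 in the transient arrays and from 51.41 to 64.39 in the others. Of the expressed genes, TMEM120A rose by 1.31 in the NET29 line and TM7SF2 by 5.95 in the NET47 line on the log2 scale, while the PLPP7 probe was at -0.30 in the NET39 line and does not check that label. With their own fragments these probes were at 0.32 (TMEM120A, adjusted p = 0.271), -0.01 (PLPP7, adjusted p = 0.987) and -0.03 (TM7SF2, adjusted p = 0.987), so the fragment labels were not checked by them. Of 12 fibroblast markers, 6 (VIM, CD44, LGALS1, CALD1, S100A6 and TIMP1) were above background on all 27 arrays and COL3A1 and THY1 on none. The epithelial keratins KRT8 and KRT18 were also above background on all 27 arrays, and EPCAM and KRT5 on 0. Of the blood cell markers CD68 was above background on 27 arrays, CD14 on 16, CD3D on 9, CD79A on 2, CD3E and HBB on 1 and PTPRC on 0. The adipocyte marker LEP was so on 26 arrays and the hepatocyte marker SERPINA1 on 21, the most of their lists.

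Most members were well measured. Of the 48, 43 were above background on all 27 arrays, CDC6 on 26 and CLSPN on 25. E2F1, which encodes the E2F factor of the G1/S switch, was above background on 6 arrays, GINS1 on 2 and the cyclin E gene CCNE2 on 0, so these 3 give bounds rather than levels. The standard deviation within groups ran from 0.085 to 0.297 with a median of 0.186 on the log2 scale.

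As a set, the members stood lower on most transient arrays than on the stable and untreated ones. The median of the 48 genes, each taken as the difference from its own mean over the 27 arrays, was -0.223, -0.19 and -0.124 with the NET29 fragment, 0.023, -0.006 and 0.03 with the NET39 fragment, -0.31, -0.21 and -0.006 with the NET47 fragment and -0.246, -0.148 and 0.075 in NLS-GFP cells. It was between 0.028 and 0.172 on the 11 arrays of the stable lines and 0.147, 0.035, 0.107 and -0.243 on untreated replicates 1 to 4. Untreated replicate 4 thus read like a transient array, and NLS-GFP replicate 3 and NET47 soluble replicate 3 read above the other arrays of their groups. Only 10 of the 48 genes were above their own mean on untreated replicate 4, against 25 to 34 on the other 3 untreated arrays.

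**Figure D1:**
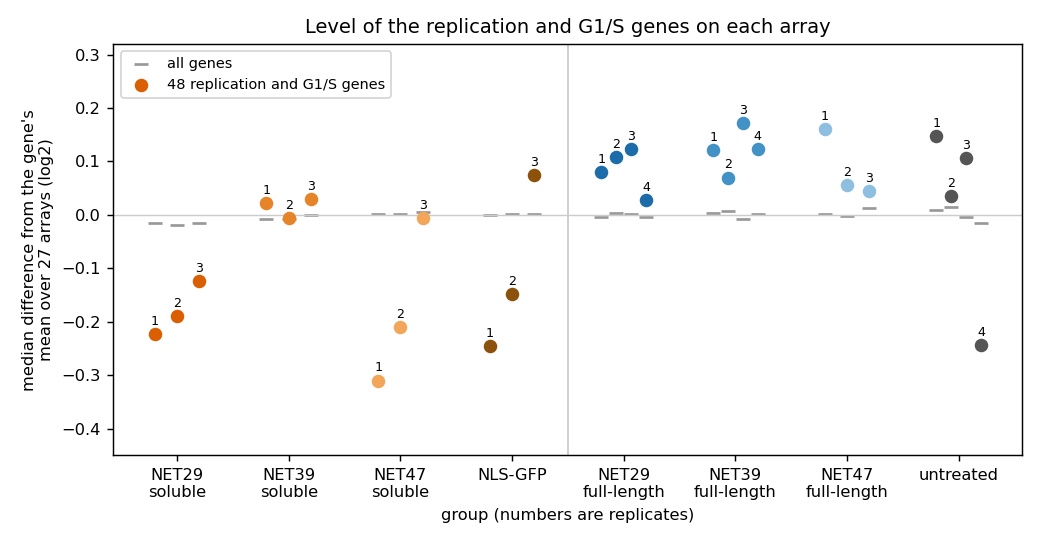
Median difference of the 48 genes from each gene's mean over 27 arrays (log2, vertical axis) on every array, by group (horizontal axis), with the median of all genes as grey bars. The stable lines sit between 0.028 and 0.172, and untreated replicate 4 (-0.243) sits among the transient arrays on the left.

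The first question was whether a full-length NET at the nuclear envelope changed these genes relative to untreated cells. RRM1, the large subunit of ribonucleotide reductase, was higher in the NET29 and NET39 lines, and POLE2, the small subunit of DNA polymerase epsilon, was higher in the NET39 line. No member fell in any of the 3 lines. A gene counted as changed where limma gave an adjusted p under 0.05 and a log2 fold change beyond 0.5. By this rule 1 of 48 members rose in the NET29 line, where 1.06% of all genes and 2% of genes above background did. In the NET39 line 2 of 48 rose, where 1.21% of all genes and 2.29% of genes above background did. In the NET47 line 0 passed with limma, against 1.21% of all genes and 2.23% of genes above background in either direction, with 4 members at an unadjusted p under 0.05 (15.3% of genes above background) and 1, POLE2, by the moderated F test (1.81% of all genes). The NET29 and NET47 shares are near the background, and the NET39 share (4.17%) rests on 2 genes.

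RRM1 read 12.39, 12.27, 12.28 and 12.35 (log2 intensity) in the NET29 line, 12.62, 12.30, 12.18 and 12.43 in the NET39 line and 12.16, 12.06 and 11.90 in the NET47 line, against 12.14, 11.77, 11.93 and 11.38 in untreated cells. Every NET29 and NET39 array lay above every untreated array, and the NET47 arrays overlapped them. The fold was 1.43 in the NET29 line (log2 fold change 0.52 ± 0.11, SE, adjusted p = 0.00493) and 1.49 in the NET39 line (0.57 ± 0.11, adjusted p = 0.00147), and the NET47 line was at 0.23 ± 0.12 (adjusted p = 0.752). The lowest untreated array was replicate 4. Without it RRM1 was at 0.37 in the NET29 line (adjusted p = 0.0153) and 0.43 in the NET39 line (adjusted p = 0.00382), both short of the 0.5 limit, and it was also short of it without NET29 full-length replicate 1 (0.49) or NET39 full-length replicate 1 (0.496). Epithelial keratin genes moved with these lines: KRT18 fell by 0.69 in the NET29 line and 0.65 in the NET39 line and KRT8 by 0.71 in the NET29 line, while the other 5 of 7 epithelial markers in the NET29 line and 6 of 7 in the NET39 line did not pass. The summed intensity of the 7 markers ran from 2740 to 4557 in the NET29 line and 3118 to 5445 in the NET39 line, against 3592 to 7970 in untreated cells, with EPCAM, KRT5 and KRT14 above background on 0 arrays, and their part in these results was not tested. Of the 12 fibroblast markers PDGFRB, above background on 11 arrays, fell by 0.53 in the NET29 line and 0.57 in the NET39 line, and COL1A2, above background on 6 arrays, fell by 0.59 in the NET39 line and 0.61 in the NET47 line. The summed intensity of the 12 ran from 45050 to 59460, 48230 to 62920 and 45990 to 59590 in the NET29, NET39 and NET47 lines, against 36540 to 78740 in untreated cells. Of 7 blood cell markers CD3D rose by 1.02 in the NET47 line, with their sum at 1183 to 1805 in that line, against 1413 to 2595 in untreated cells, and the part of these markers was not tested.

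POLE2 read 8.80, 8.81, 8.59 and 8.70 in the NET29 line, 9.05, 8.86, 8.88 and 8.91 in the NET39 line and 8.84, 8.99 and 8.41 in the NET47 line, against 8.731, 7.976, 8.258 and 7.997 in untreated cells. The NET39 arrays lay above all untreated arrays, and in the other lines untreated replicate 1 was within their range. The NET39 line was 1.61-fold higher (0.69 ± 0.12, adjusted p = 0.000756), and the value stayed past the threshold with any single array left out (0.60 to 0.85). The NET29 line was at 0.485 ± 0.12 (adjusted p = 0.024), just under the fold limit, and the NET47 line at 0.51 ± 0.13 (adjusted p = 0.0727), just past that limit but short on p. Without NET47 full-length replicate 3 or untreated replicate 1, POLE2 passed in the NET47 line, and in the NET29 line it passed once untreated replicate 1, or replicate 3 of that line, was left out. Between lines limma called 0 of 48 members in each of the 3 pairs. For NET39 against NET29, NET47 against NET29 and NET47 against NET39 the members at an unadjusted p under 0.05 numbered 1, 2 and 4, beside 4.85%, 22.9% and 21.7% of genes above background, and 0.171%, 2.28% and 2.37% of all genes passed. A difference between lines in RRM1 or POLE2 was therefore not shown.

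No other member passed in a line. Their values ran from -0.31 to 0.39 in the NET29 line, where the lowest was the thymidine kinase gene TK1 (-0.31 ± 0.12, adjusted p = 0.286), followed by POLE, the catalytic subunit of polymerase epsilon (-0.19, adjusted p = 0.484). In the NET39 line RPA1 (-0.22) and PCNA (-0.18) were lowest, and the primase subunit gene PRIM2 (0.41 ± 0.10, adjusted p = 0.0198) passed the p limit but not the fold limit, with all NET39 arrays above all untreated arrays. Such a gap without overlap was seen for 4 members in the NET39 line (POLA2, PRIM2, POLE2 and RRM1), against 3.98% of all genes and 6.27% of genes above background, and for 2 in the NET29 line (RRM1 and PRIM2), against 3.59% and 5.48%. In the NET47 line POLE (-0.18) and PCNA (-0.14) were lowest and RPA2 (0.33 ± 0.10, adjusted p = 0.21) stood next to POLE2. Of the MCM2-7 helicase genes 2 of 6 lay above 0 in the NET29 line, 5 in the NET39 line and 6 in the NET47 line, with 0 past the threshold. Of the G1/S control genes, CCNE1, CDC25A and E2F2, the ones above background on all 27 arrays, lay between 0.04 and 0.32 in the lines, and none passed. RRM2, the other subunit of ribonucleotide reductase, was at 0.39 ± 0.18 in the NET29 line (adjusted p = 0.365) and 0.45 ± 0.18 in the NET39 line (adjusted p = 0.242), and thymidylate synthase, TYMS, at 0.15, 0.018 and 0.0071 in the NET29, NET39 and NET47 lines.

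Taken over all members, the 3 near background included, 33 of 48 lay above 0 in the NET29 line, 38 in the NET39 line and 36 in the NET47 line. The median was 0.117, 0.14 and 0.099, beside 0.023, 0.026 and 0.014 for genes above background. These 3 comparisons share the untreated arrays. Without untreated replicate 4 the medians were 0.012, 0.033 and 0.005, with 26, 30 and 26 members above 0, and the calls left were 0, 1 (POLE2, 0.61, adjusted p = 0.00407) and 0, where 3.73%, 3.86% and 1.43% of all genes passed. Under median scaling of the arrays 0 members passed in any line, where 1.32%, 1.56% and 0.504% of all genes did. The folds were then as large and the calls were lost on p, with RRM1 at 0.56 (adjusted p = 0.824) in the NET29 line and 0.61 (adjusted p = 0.712) in the NET39 line and POLE2 at 0.75 (adjusted p = 0.468) in the NET39 line.

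**Figure D2:**
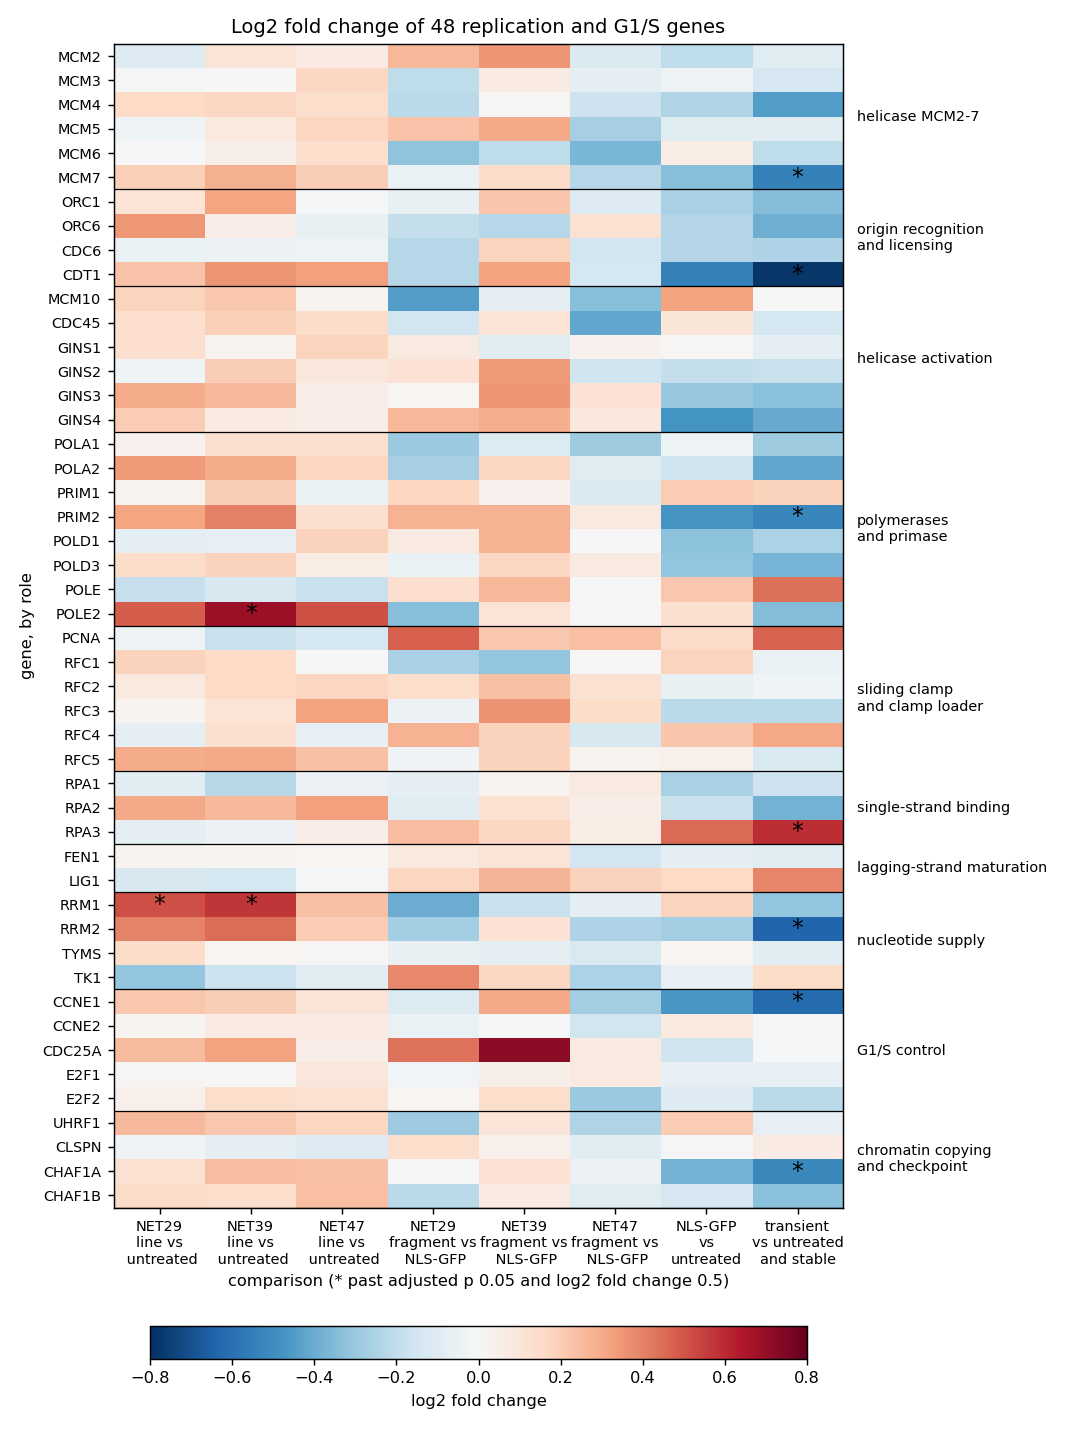
Log2 fold change (colour, from -0.8 to 0.8) of the 48 genes, grouped by role, in the 7 comparisons with a control and in transient groups against untreated and stable groups, with an asterisk where a gene passed the threshold. The line columns hold 3 asterisks, at RRM1 and POLE2, the fragment and NLS-GFP columns none, and the last column 7.

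The second question was whether the soluble fragments, which cannot anchor in the membrane, changed these genes relative to NLS-GFP cells. With limma 0 of 48 members passed in each of the 3 comparisons, against 1.3% of all genes with the NET29 fragment, 0.145% with the NET39 fragment and 1.17% with the NET47 fragment (2.52%, 0.28% and 2.18% of genes above background). At an unadjusted p under 0.05 there were 9, 6 and 4 of 48 members, a smaller share each time than the 26%, 17.2% and 13.4% of genes above background. The joint moderated F test, which does not test 1 comparison alone, gave 1 member here, CDC25A with the NET39 fragment, beside 1.21% of all genes. This phosphatase, which activates cyclin-dependent kinases at the G1/S step, read 9.16, 8.99 and 9.05 with the NET39 fragment and 8.08, 8.13 and 8.83 in NLS-GFP cells. The fragment arrays lay above all control arrays, and the estimate was 0.71 ± 0.18 (adjusted p = 0.134). Without NLS-GFP replicate 3, the control array nearest to them, CDC25A passed with the NET39 fragment together with MCM2 and CCNE1 (1.55% of all genes passed), and with the NET29 fragment together with TK1 (1.81%).

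With the NET29 fragment, PCNA read 10.53, 10.81 and 11.16 against 10.30, 10.21 and 10.55 in NLS-GFP cells (0.48 ± 0.17, adjusted p = 0.173), and the 2 groups overlapped by a single pair of arrays. MCM10, a helicase activator, was at -0.45 ± 0.17 (adjusted p = 0.202) and RRM1 at -0.40 ± 0.12 (adjusted p = 0.121), with all fragment arrays of both genes below the NLS-GFP arrays. With the NET39 fragment RFC3 (0.36) stood next to CDC25A at the top and RFC1 (-0.32) and ORC6 (-0.23) at the bottom. With the NET47 fragment CDC45, a part of the active helicase, read 9.74, 9.90 and 9.57 against 10.09, 10.13 and 10.24 (-0.42 ± 0.12, adjusted p = 0.12), MCM6 was at -0.36 and PCNA (0.24) and LIG1 (0.19), the ligase that seals lagging-strand fragments, were highest. The median of the members was -0.049 with the NET29 fragment, 0.143 with the NET39 fragment and -0.094 with the NET47 fragment, beside -0.035, -0.012 and 0.003 for genes above background. Under median scaling they were -0.395, 0.127 and 0.258, beside -0.355, -0.06 and 0.295 for genes above background. Without NLS-GFP replicate 3 they were 0.083, 0.268 and 0.008, so the sign of the median itself held over these settings for the NET39 fragment only. Relative to genes above background the members stood at -0.013, 0.156 and -0.097 under quantile normalisation. Under median scaling these differences were -0.04, 0.187 and -0.036. Of the 48, 39 lay above 0 with the NET39 fragment, 20 with the NET29 fragment and 19 with the NET47 fragment.

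Between fragments, most members read higher with the NET39 fragment than with either of the others. Against the NET29 fragment 38 of 48 members lay above 0 (median 0.161, and 0.012 for genes above background), and for 23 members all NET39 fragment arrays lay above all NET29 fragment arrays, which held for 13.8% of all genes and 20.5% of genes above background. With limma 0 passed, with 13 at an unadjusted p under 0.05 (18.5% of genes above background) and 0.863% of all genes past the threshold. The largest difference of means was at CDT1, the licensing factor, which read 9.17, 9.03 and 8.97 with the NET39 fragment and 8.42, 8.75 and 8.36 with the NET29 fragment (0.55). Against the NET39 fragment, the NET47 fragment was lower at 41 of 48 members (median -0.188, and 0.012 for genes above background), and 2 members fell, where 0.997% of all genes and 1.88% of genes above background did. For 18 members all NET47 fragment arrays lay below all NET39 fragment arrays, which held for 11.6% of all genes and 17.5% of genes above background. CDC45, at 9.74, 9.90 and 9.57 with the NET47 fragment against 10.17, 10.40 and 10.21 with the NET39 fragment, fell by 0.52 ± 0.12 (adjusted p = 0.0151). CCNE1, cyclin E1, which read 7.66, 7.83 and 7.93 with the NET47 fragment against 8.46, 8.26 and 8.43 with the NET39 fragment, fell by 0.58 ± 0.15 (adjusted p = 0.0468). Under median scaling the members' median turned to 0.159 (0.331 for genes above background) and both calls were lost, with CDC45 at -0.12 (adjusted p = 0.89) and CCNE1 at -0.17 (adjusted p = 0.825). GINS2 was at -0.499 ± 0.10 (adjusted p = 0.00432), at the edge of the fold limit. CCNE1 was lost on p with any 1 of the 6 arrays left out (adjusted p between 0.052 and 0.271), and CDC45 without NET39 soluble replicate 2 or NET47 soluble replicate 1 or 3 (-0.45, -0.53 and -0.44). Against the NET29 fragment, the NET47 fragment had 1 member lower, TK1, which read 9.90, 9.98 and 10.25 against 10.81, 10.69 and 10.54 (-0.64 ± 0.14, adjusted p = 0.0117), where 1.64% of all genes and 3.09% of genes above background fell. It was lost without NET29 soluble replicate 1 (-0.57) or NET47 soluble replicate 1 (-0.56) or 2 (-0.61). The direction of TK1 turned under median scaling (0.25, adjusted p = 0.588), which moved genes above background as a whole by 0.62 in this comparison. There 9 members passed, all higher, where 18.5% of all genes passed. CD3D, 1 of 7 blood cell markers, was 0.56 higher with the NET47 fragment, and its part was not tested.

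The third question was whether the full-length protein acted differently from its own fragment, asked of each NET as the difference between the line's change against untreated cells and the fragment's change against NLS-GFP cells. For NET29, 3 of 48 members passed, where 5.34% of all genes and 9.79% of genes above background did. RRM1 differed by 0.91 ± 0.17 (adjusted p = 0.00163), being at 0.52 in the line and -0.40 with the fragment, and POLE2 differed by 0.83 ± 0.19 (adjusted p = 0.0114), being at 0.48 and -0.34. TK1 differed by -0.69 ± 0.19 (adjusted p = 0.0437), being at -0.31 and 0.38, but it was lost on p with any of 9 of the 14 single arrays left out. For NET39 1 member passed, RRM1 (0.75 ± 0.17, adjusted p = 0.0161), where 0.975% of all genes and 1.8% of genes above background were higher. It was lost without NLS-GFP replicate 2 (0.71) or NET39 soluble replicate 1 (0.72) or 2 (0.73). For NET47 0 passed with limma, against 0.723% of all genes, with 5 at an unadjusted p under 0.05 (12.7% of genes above background). RRM1 and POLE2 in the NET29 difference stayed past the threshold with each single array left out (0.77 to 1.03 and 0.74 to 0.99), but POLE2 was lost on p with cyclic loess (0.75, adjusted p = 0.0542) and with only the arrays compared (0.81, adjusted p = 0.0526). Under median scaling 0 members passed for NET29 or NET39. In the NET29 difference RRM1 was then at 1.38 (adjusted p = 0.223), POLE2 at 1.29 (adjusted p = 0.284) and TK1 at -0.07 (adjusted p = 0.961), where genes above background moved by 0.333. Markers passed in the same tests, KRT18 (-0.96, 1 of 7 epithelial markers) for NET29 and COL1A2 (1 of 12 fibroblast markers) at -0.56, -0.68 and -0.68 for NET29, NET39 and NET47, and their part was not tested. The lines and the fragments also differ in mode of expression, selection and control, so none of these can be told apart from anchoring.

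NLS-GFP cells were set against untreated cells, which asks what transfection with an unrelated nuclear GFP did to these genes. With all arrays 0 of 48 passed with limma through their main probes, against 1.11% of all genes and 2.13% of genes above background. At an unadjusted p under 0.05 there were 13, beside 26.3% of genes above background. By the joint moderated F test 1 passed, CDT1, beside 2.31% of all genes. Second probes of MCM7 and UHRF1 did pass with limma, as given further on. CDT1 read 8.39, 8.77 and 9.06 in NLS-GFP cells and 9.51, 9.56, 9.49 and 8.55 in untreated cells (-0.54 ± 0.21, adjusted p = 0.193). The only untreated array inside the NLS-GFP range was replicate 4. GINS4 was at -0.48 (adjusted p = 0.162), PRIM2 at -0.47 ± 0.11 (adjusted p = 0.0298, all NLS-GFP arrays below all untreated arrays) and RPA3, the small subunit of RPA, at 0.45 ± 0.11 (adjusted p = 0.0457), both short of the fold limit. Without untreated replicate 4, 6 members were lower and 1 higher in NLS-GFP cells, against 3.9% of all genes. CDT1 was then at -0.78, PRIM2 at -0.56, CHAF1A at -0.56, MCM7 at -0.55, RRM2 at -0.53, CCNE1 at -0.51 and RPA3 at 0.57 (adjusted p between 0.00144 and 0.0464). Without NLS-GFP replicate 3 instead, 4 members passed, PRIM2, POLD1 and CCNE1 lower and RPA3 higher, against 2.79% of all genes. Of the 12 fibroblast markers S100A6 fell by 0.52 in NLS-GFP cells, and its part was not tested.

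The 4 transient groups were then set against the 4 untreated and stable groups, a comparison chosen after the values had been seen. In it 6 members were lower and 1 higher in the transient groups, 14.6% of the 48, against 4.82% of all genes and 8.58% of genes above background. The genes that were lower made up 2.18% of all genes and 3.88% of genes above background. In all 40 of 48 members lay below 0, with a median of -0.172, and -0.022 for genes above background. The 4 groups did not share this evenly. Against untreated cells the members' median was -0.161 with the NET29 fragment, -0.186 with the NET47 fragment and -0.088 in NLS-GFP cells. With the NET39 fragment it was 0.011, with 25 of 48 above 0. Without untreated replicate 4 these medians were -0.251, -0.246, -0.16 and -0.084. Transfection, selection and the expressed proteins cannot be told apart here, and the part of the higher array background of the transient groups, given above, was not tested. Of 12 fibroblast markers 1 fell in the transient groups (S100A6, -0.57) and of 7 blood cell markers 1 rose (CD68, 0.60), while 0 of 7 epithelial markers passed. CD68 was above background on all 27 arrays and the blood cell marker PTPRC on 0. Summed over the list, fibroblast markers ran from 35720 to 61400 in the transient groups and 36540 to 78740 in the others, and blood cell markers from 1337 to 2914 and from 1122 to 2595, and their part was not tested either.

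CDT1 showed the widest fall. It read 8.26 to 9.17 (median 8.76) on the 12 transient arrays and 8.55 to 9.79 (median 9.52) on the 15 others, and without untreated replicate 4 the 2 sets did not overlap, since the next lowest array was at 9.39. The transient groups were 1.71-fold lower (-0.78 ± 0.10, adjusted p = 4.17e-06). MCM7, a subunit of the helicase that CDT1 loads, read 11.50 to 12.24 (median 11.98) on the transient arrays and 11.68 to 12.74 (median 12.50) on the others, and was 1.46-fold lower (-0.54 ± 0.08, adjusted p = 1.78e-05), again with no overlap but for untreated replicate 4. All 6 helicase genes and all 4 origin and licensing genes lay below 0, the others between -0.09 (MCM5) and -0.45 (MCM4), with CDC6 at -0.25 ± 0.07 (adjusted p = 0.00937).

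RRM2 read 8.63 to 9.45 (median 9.03) on the transient arrays and 8.63 to 10.09 (median 9.71) on the others and was 1.55-fold lower (-0.63 ± 0.10, adjusted p = 2.16e-05). Its partner RRM1 was at -0.31 ± 0.06 (adjusted p = 0.000297), under the fold limit, and TYMS was at -0.09 and TK1 at 0.15. CCNE1 read 7.66 to 8.58 (median 7.99) on the transient arrays and 8.43 to 8.94 (median 8.71) on the others and was 1.53-fold lower (-0.62 ± 0.07, adjusted p = 4.83e-07). Only NLS-GFP replicate 3 and NET39 soluble replicate 1 reached the range of the other arrays. PRIM2, which primes new strands with its partner PRIM1, fell by 0.52 ± 0.06 (adjusted p = 1.58e-07), and PRIM1 was at 0.18 (adjusted p = 0.0541). CHAF1A, the large subunit of the histone chaperone that rebuilds chromatin on new DNA, read 6.66 to 7.36 (median 7.01) against 6.85 to 7.97 (median 7.50) and fell by 0.51 ± 0.09 (adjusted p = 0.000113), which fell short of the limit, between -0.4702 and -0.4995, with any of 9 single arrays left out.

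Not all replication genes went the same way. RPA3 read 10.54 to 11.21 (median 10.87) on the transient arrays and 10.07 to 10.64 (median 10.23) on the others, and was 1.5-fold higher (0.59 ± 0.06, adjusted p = 5.73e-08), whereas the other RPA genes were at -0.16 (RPA1) and -0.38 (RPA2). PCNA was at 0.47 ± 0.08 (adjusted p = 7.73e-05), POLE at 0.44 ± 0.05 (adjusted p = 7.81e-07), LIG1 at 0.39 ± 0.07 (adjusted p = 9.25e-05) and the clamp loader gene RFC4 at 0.31 ± 0.06 (adjusted p = 0.00029), all under the fold limit. POLE read 8.11 to 8.51 on the transient arrays and 7.69 to 8.04 on the others without untreated replicate 4, which was at 8.37. Leaving that array out, 3 members (CDT1, MCM7 and CHAF1A) were lower on all transient arrays and 2 (POLE and RPA3) higher, where 1.47% and 0.873% of all genes did the same, and 2.6% and 1.55% of genes above background. That array was left out after its values had been seen, and each of these genes overlapped with it in. Leaving it out also brought MCM4 (-0.502) and PCNA (0.51) past the limit, 9 members in all against 5.76% of all genes.

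**Figure D3:**
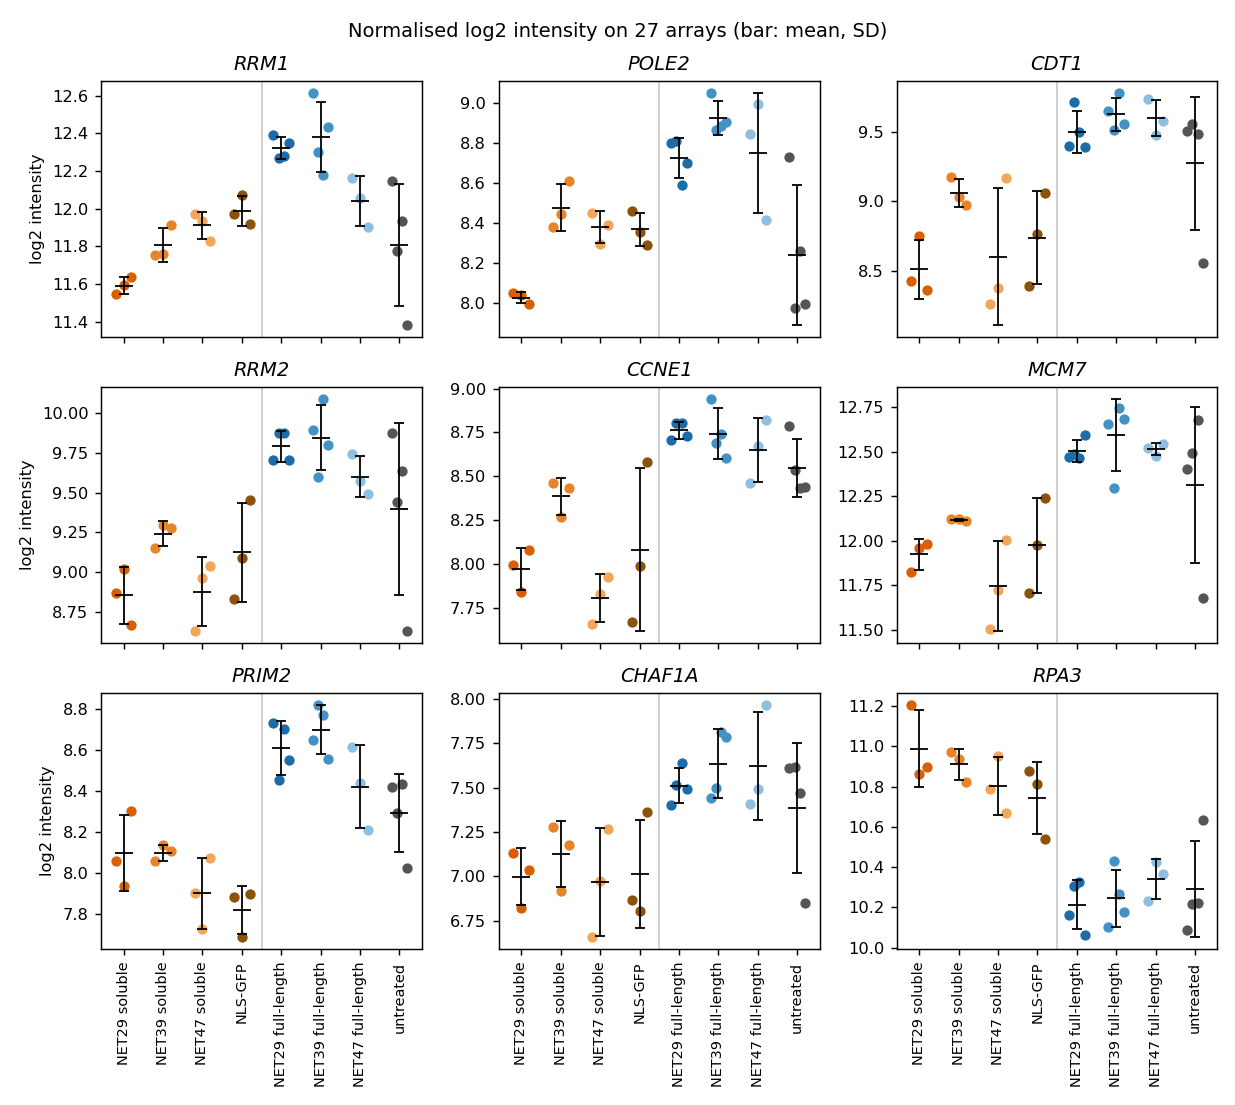
Normalised log2 intensity (vertical axis) of 9 genes on all 27 arrays by group (horizontal axis), with the mean and SD of each group as bars and the transient groups to the left of the line. RRM1 is higher in the NET29 and NET39 lines and POLE2 in the NET39 line than in untreated cells, CDT1, RRM2, CCNE1, MCM7, PRIM2 and CHAF1A are lower and RPA3 is higher in the transient groups, and the untreated array that reads near the transient ones for CDT1 and MCM7 is replicate 4.

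**Figure D4:**
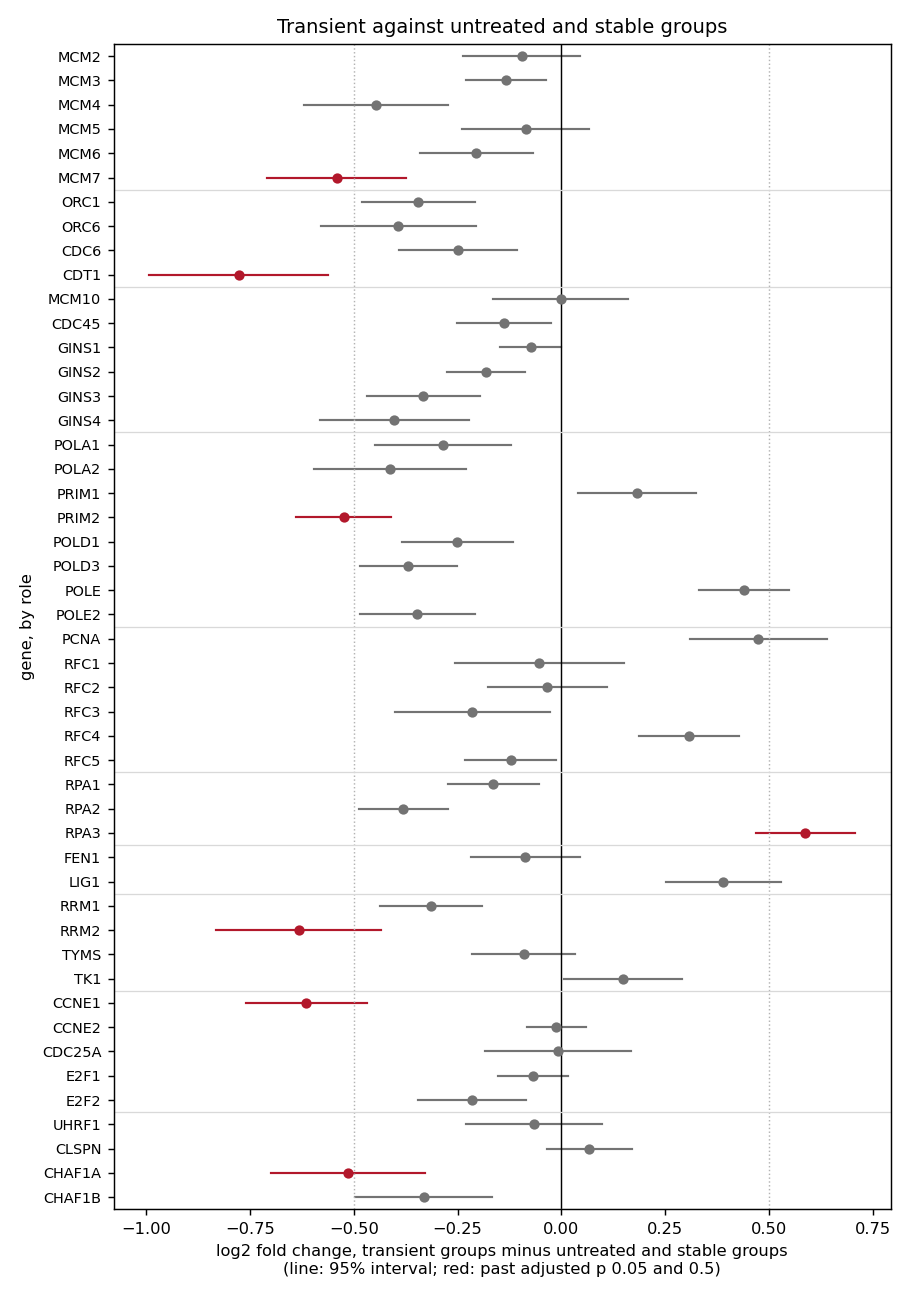
Log2 fold change (horizontal axis) with its 95% interval of the 48 genes (vertical axis, by role) in transient groups against untreated and stable groups. The 7 red genes passed the threshold, 6 lower and RPA3 higher, and dotted lines mark -0.5 and 0.5.

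The size of this difference depended on the scaling of the arrays. Median scaling moved genes above background by -0.149 in this comparison, and 17 members then passed, all lower (9.4% of all genes passed), with RPA3 at 0.29 (adjusted p = 0.0503). The members' median stood 0.274 below that of genes above background under median scaling and 0.15 below it under quantile normalisation. With cyclic loess 4 passed, CDT1, RPA3, RRM2 and CCNE1, where 4.91% of all genes did.

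The lines were also set against NLS-GFP cells and the fragments against untreated cells. In the NET29 line 8 members were higher and 1 lower than in NLS-GFP cells (6.64% of all genes passed and 12.4% of genes above background), in the NET39 line 11 were higher (3.17% and 5.94% of genes were) and in the NET47 line 5 were higher (3.26% and 6.05%). CDT1 was higher by 0.77, 0.89 and 0.87, PRIM2 by 0.79, 0.88 and 0.60 and CCNE1 by 0.68, 0.66 and 0.57 in the NET29, NET39 and NET47 lines, 3 comparisons that share the NLS-GFP arrays. Other probes of PRIM2 and CCNE1 did not pass here, as given further on. Leaving out single arrays moved these counts to between 1 and 15, 2 and 16, and 1 and 8. These ranges stand without the share of all genes past the threshold under the same settings. They show only how the calls depend on single arrays and are not results about the members. Under median scaling they were 0, 1 (PRIM2, higher) and 0, where 2.2%, 2.34% and 1.09% of all genes passed, and the members' medians were 0.39, 0.449 and 0.374, beside 0.199, 0.184 and 0.143 for genes above background. With quantile normalisation the members' medians were 0.151, 0.231 and 0.209, so they stood 0.132, 0.215 and 0.194 above genes above background, and 0.191, 0.266 and 0.231 under median scaling. Markers passed in these comparisons too. S100A6 (1 of 12 fibroblast markers) was higher by 0.76, 0.68 and 0.69 in the NET29, NET39 and NET47 lines, CD68 was at -0.66, -0.66 and -0.82, and CD3D at 1.11 in the NET47 line (2 of 7 blood cell markers). KRT8 was at -0.83 in the NET29 line and -0.69 in the NET39 line and KRT18 at -0.51 in the NET29 line (2 of 7 epithelial markers). In NLS-GFP cells the summed intensities were 39960 to 55690 (fibroblast), 1641 to 2323 (blood cell) and 3971 to 5694 (epithelial), and the part of these markers was not tested. Against untreated cells the NET29 fragment had 5 members past the threshold (4.36% of all genes), with PCNA (0.63), RFC4 (0.50) and RPA3 (0.70) higher and CDT1 (-0.77) and CCNE1 (-0.58) lower, the NET39 fragment had 1 higher, RPA3 (0.62, 1.28% of all genes higher), and the NET47 fragment had 3, RPA3 (0.51) higher and MCM7 (-0.57) and CCNE1 (-0.74) lower (4.5% of all genes). Of the 12 fibroblast markers S100A6 fell by 0.50 with the NET39 fragment and CD44 by 0.58 with the NET47 fragment. Without untreated replicate 4 the counts of members were 13, 5 and 10, against 8.31%, 5.34% and 7.48% of all genes. Of these, 3 were higher and 10 lower with the NET29 fragment, and 2 higher and 8 lower with the NET47 fragment. With the NET39 fragment all 5 were higher. Under median scaling the NET29 fragment had 0 members higher and 5 lower (ORC6, CDC6, CDT1, POLD1 and CCNE1, 8.32% of all genes past the threshold) and the NET39 and NET47 fragments had 0 (0.166% and 1.81%). PCNA and RFC4 with the NET29 fragment then turned to -0.058 and -0.21, where genes above background moved by -0.461.

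Other probes of the same genes did not always follow. In the transient groups a second MCM7 probe was lower by more than the main one (-1.15, adjusted p = 3.37e-08), and a second UHRF1 probe fell by 0.66 (adjusted p = 3.29e-07) while the brightest was at -0.07. A second CCNE1 probe was at -0.27 (adjusted p = 0.000154), under the fold limit. For PRIM2 another probe, above background on 22 arrays, was at 0.19 (adjusted p = 0.0238), opposite to the main probe, so the fall of PRIM2 rests on 1 probe. In the NET29, NET39 and NET47 lines against NLS-GFP cells that PRIM2 probe was at -0.21, -0.12 and -0.05. The second CCNE1 probe was there at 0.22, 0.35 and 0.23. A second ORC6 probe was at -0.17 in the NET29 line against NLS-GFP cells, where the main one was at 0.58. None of these second probes passed there. RRM1, POLE2, CDT1, RRM2, CHAF1A and RPA3 had 1 probe each. In NLS-GFP against untreated cells second probes of MCM7 (-0.95, adjusted p = 0.026) and UHRF1 (-0.63, adjusted p = 0.0285) passed. The main probes were at -0.34 and 0.20. A second RFC3 probe was higher in the NET47 than the NET39 line (0.58). With the NET39 fragment against untreated cells second probes of MCM4 (0.62, main probe -0.23) and CDC25A (0.53) passed. The MCM4 probe also passed for the NET47 against the NET39 fragment (-0.51).

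Related genes outside the list were given from lists of other replication genes, other G1 and G1/S regulators and mitosis genes. Of 32 other replication genes limma called 0 in each of the 7 comparisons of a line or fragment with its control and of NLS-GFP with untreated cells, with 2 to 6 of them at an unadjusted p under 0.05. Of 29 other G1 regulators, CCND2 (-0.62) and CKS1B (-0.81), a cofactor of the ubiquitin ligase that degrades p27, fell in the NET29 line, and in the NET39 line CCND2 (-0.81) fell while SKP2 (0.58), the substrate receptor of that ligase, and MYC (0.55) rose. CDKN1B, which encodes p27, an inhibitor of cyclin E kinase, rose by 0.68 with the NET29 fragment, and CDKN2D fell by 0.59 in NLS-GFP cells. Of 30 mitosis genes CENPA (0.52) rose in the NET39 line and FOXM1 (0.60) with the NET39 fragment. In the transient groups against the others, GMNN, which encodes geminin, the inhibitor of CDT1, rose by 0.55 (adjusted p = 2.06e-05), CDKN1B by 0.80 and CKS1B by 0.84, and CCND3 (-0.78) and CDKN2D (-0.57) fell, named after their values were seen. Mitosis genes went both ways there, 2 of 30 higher (CENPF 0.87 and MAD2L1 0.60) and 3 lower (BIRC5 -0.64, PLK1 -0.59 and CDC20 -0.59).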

How the data were processed

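Each of the 27 RNA samples was read on its own HumanHT-12 v3 array. The deposited intensity table, which gave every main value, holds 48803 probes, and the authors had neither normalised it nor removed background from it. The deposited log2 table (48802 probes) holds the values after quantile normalisation in limma by the authors, and served as an alternative. Groups and the mode of expression were taken from the labels, although the paper in 1 place calls the fragment cells stable. Probes with 1 symbol (27577, of which 27540 were found in the reference gene table by Entrez identifier) gave 18665 genes, each read from its brightest probe.

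With limma 3.58.1 (R 4.3.3) the background was corrected by normexp (the added offset of 50 shrinks the fold changes of dim probes) and log2 values were quantile normalised. One linear model with 8 group means (19 residual degrees of freedom) gave moderated tests, adjusted by Benjamini-Hochberg over 48803 probes. The limits were an adjusted p under 0.05 and a log2 fold change beyond 0.5, as in the study's methods. An array's background was the 95th percentile of 620 probes of genes not expected in fibroblasts (defensins, keratin-associated proteins, olfactory and taste receptors), and "genes above background" are above it on every array of at least 1 group compared. Arrays have no read depth, and their number limits the precision. The fit was tested on simulated data.

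The 48 members and all lists were chosen with earlier results of these data known. Named were members past the threshold in any of the 16 planned comparisons, the 2 highest and 2 lowest members in each comparison with a control, 12 textbook genes of the programme (PCNA, MCM2, MCM7, CDC6, CDT1, CCNE1, CCNE2, E2F1, RRM1, RRM2, TYMS and CDC25A) and genes of the 3 related lists past the threshold. Genes of those lists with no probe under their symbol are not reported here. Alternatives were other normalisations, background offsets, filters, probe choices, sample choices, a replicate block, array weights, the study's moderated F test, the other control and each array left out. Same-numbered arrays of different groups deviated together in 30 of 87 pairs (correlation over 0.1), so the numbers were not taken to pair the arrays.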

Additional observations from a re-analysis of the deposited data

Results flagged for a closer look

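The change of RRM1 and POLE2 differed between the full-length NET29 line and its fragment by a test of the difference itself, 0.91 for RRM1 (0.52 in the line and -0.4 with the fragment) and 0.83 for POLE2 (0.48 and -0.34). TK1 differed there by -0.69 (-0.31 and 0.38). RRM1 also differed for NET39, by 0.75 (0.57 and -0.18). The members' share past the threshold for NET29 (6.25%) was below that of genes above background, given earlier. TK1 was lost with any of 9 of the 14 single arrays left out, and RRM1 for NET39 with any of 3. Under median scaling 0 members passed for NET29 or NET39. Mode of expression, selection and control cannot be told apart from anchoring here.

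Single arrays stood far from the others of their group of 4, by the gap to the nearest array as a share of the group's range. Untreated replicate 4 did so at CDT1 (8.55, with the other 3 between 9.49 and 9.56, a share of 0.929). NET29 full-length replicate 1 did so at MCM10 (9.26, the others between 9.38 and 9.40, 0.882) and at E2F1 (6.25, the others between 6.07 and 6.10, 0.834), and NET39 full-length replicate 2 at MCM6 (11.17, the others between 11.37 and 11.40, 0.884). E2F1 was above background on 1 of the 4 NET29 full-length arrays, so its gap lies near background. In all 81 such gaps were examined, over 26 named members and the array medians in 3 groups. Chance alone passes about 1 in 20, and the 4 found are no more than that. The gaps come from the same arrays and are not independent, so this number does not tell which of them arose by chance. Untreated replicate 4 also stood apart from its group on the first principal component (17.2) and in the members' median (-0.243).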

How the results depend on the processing

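Of 1745 values recomputed under an alternative, 1392 kept their direction and side of the threshold (counts within 1.5 times), 223 called values were lost, 124 of them by leaving out a single array, 127 counts or medians moved and 3 called values turned round. Those 3 came with median scaling, which gave -0.058 for PCNA and -0.21 for RFC4 in the NET29 fragment against untreated cells, and 0.25 for TK1 in the NET47 against the NET29 fragment. The cause was not tested for the values below, except that fits with fewer arrays estimate the spread from less. Most counts below stand without the share of all genes past the threshold under the same setting. They show only how the calls depend on the processing and are not results about the members.

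In the NET29 line the count of members called was 0 with median scaling, cyclic loess, array weights or only the arrays compared, 2 with an offset of 16 and 9 against NLS-GFP cells. In the NET39 line it was 0 with median scaling or only the arrays compared, 1 with array weights and 11 against NLS-GFP cells. In the NET47 line it was 1 (POLE2) with array weights, the moderated F test, only probes above background on at least 3 arrays, or with 2 arrays left out together (replicate 2 of the untreated cells and replicate 3 of the line), and 5 against NLS-GFP cells. With untreated cells in place of NLS-GFP cells the NET29, NET39 and NET47 fragments had 5, 1 and 3. With the NET39 fragment it was 1 by the moderated F test or with only the arrays compared. In NLS-GFP against untreated cells it was 1 with an offset of 16 or the moderated F test and 5 with array weights. Between fragments, NET47 against NET39 gave 0 with median scaling, 4 with cyclic loess or the filter on background, and 5 with array weights or only the arrays compared, NET47 against NET29 gave 9 with median scaling (all higher, where 18.5% of all genes passed and TK1 was no longer called), and NET39 against NET29 gave 1 with only the arrays compared. The NET29 difference between line and fragment had 0 members with median scaling, where RRM1 and POLE2 were lost on p with larger folds, and 1 (RRM1) with only the arrays compared, and the NET39 difference 0 with either. Transient against other groups gave 17 with median scaling and 4 with cyclic loess. Median scaling put the members' median at -0.395 with the NET29 fragment, 0.258 with the NET47 fragment and -0.279 in NLS-GFP cells. The sign of the members' median turned for the NET47 fragment with median scaling, where genes above background stood at 0.295. It also turned for the NET29 fragment with cyclic loess (0.014). Without NLS-GFP replicate 3 it turned for both (0.083 and 0.008 for NET29 and NET47).

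Without untreated replicate 4 and NLS-GFP replicate 3 together, an alternative chosen after seeing the data, the counts were 0 and 1 in the NET29 and NET39 lines, 2 and 4 with the NET29 and NET39 fragments, 10 in NLS-GFP against untreated cells and 4 for the NET47 against the NET39 fragment. The medians were then 0.083 and 0.27 with the NET29 and NET39 fragments, 0.033 in the NET39 line and -0.269 in NLS-GFP cells. With single arrays left out the counts ran from 0 to 2, 1 to 3 and 0 to 1 in the NET29, NET39 and NET47 lines, 0 to 2 and 0 to 3 with the NET29 and NET39 fragments, 0 to 7 in NLS-GFP cells, 0 to 3 for NET47 against NET29 and 1 to 4 for NET47 against NET39 fragments, 0 to 2 and 0 to 1 in the NET39 and NET47 differences and 6 to 9 in transient against other groups. The medians ran from -0.092 to 0.083 with the NET29 fragment, 0.068 to 0.268 with the NET39 fragment and -0.22 to -0.028 in NLS-GFP cells. Leaving out untreated replicate 4 gave the 7, and leaving out NLS-GFP replicate 3 gave the highest counts and medians with the NET29 and NET39 fragments.

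With the replicate number as a block the NLS-GFP against untreated count was 1 (PRIM2), the NET29, NET39 and NET47 fragments against untreated cells had 8, 2 and 5, and no other count of members moved by over 1.5 times. ORC6 in the NET29 line against NLS-GFP cells was then short on p (0.52, adjusted p = 0.0541). Correlations of same-numbered arrays ran from -0.71 to 0.704 (median 0.036), so the numbers were not read as pairs.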
